A study of Oryza sativa with 5 samples.

Results

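A set of 9 rice genes of iron deficiency regulation and metal ion uptake was followed in root RNA-seq libraries of OsNAC6 lines. The 9 loci were given as a list of locus identifiers, with no threshold on a measured value, but chosen with earlier results of these data known. All 9 were found, with 13 transcripts, among 34330 loci and 40925 transcripts of the tables. They comprised the transporters OsIRT1 (Os03t0667500) and OsIRT2 (Os03t0667300) on chromosome 3 and OsNRAMP1 (Os07t0258400) and OsNRAMP5 (Os07t0257200) on chromosome 7. The regulators were OsIDEF1 (Os08t0101000, chromosome 8), OsIRO2 (Os01t0952800, chromosome 1) and OsIRO3 (Os03t0379300, chromosome 3), together with the ubiquitin ligases OsHRZ1 (Os01t0689451, chromosome 1) and OsHRZ2 (Os05t0551000, chromosome 5). The chromosome was read from the locus identifier. RNA came from roots of seedlings at an age of 2 weeks, grown under normal conditions, in 5 groups with 1 library each. RCc3::OsNAC6 carried OsNAC6 under a promoter active in roots and GOS2::OsNAC6 carried it under a whole-plant promoter, and these were set against nontransgenic plants of the same cultivar, NT (Nipponbare). The nac6 plants, labelled as knockout mutants of OsNAC6 and carrying a T-DNA insertion in that gene, were set against NT (Hwayoung), nontransgenic plants of the cultivar Hwayoung. The sources used here do not say how many plants or transgenic lines went into a library, nor how much iron the soil supplied.

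Grasses take up iron by secreting phytosiderophores of the mugineic acid family and importing the ferric complex, which is called strategy II. Rice in addition takes up ferrous iron directly, through the ZIP family transporters OsIRT1 and OsIRT2, and metal transporters of the NRAMP family carry iron, manganese and cadmium into root cells. OsIDEF1 acts early in the response and binds an iron deficiency element, OsIRO2 is a bHLH factor that activates the strategy II genes, OsIRO3 is a bHLH factor that represses parts of the response, and the HRZ proteins are iron-binding ubiquitin ligases that hold the response back when iron is sufficient.

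Before the 9 genes, the targeted gene was examined, and OsNAC6 did not follow the labels. OsNAC6 (Os01t0884300-01) had 6050 reads in the library labelled RCc3::OsNAC6, 6675 reads in the library labelled GOS2::OsNAC6 and 6215 reads in NT (Nipponbare), and 8215 reads in the library labelled nac6 against 7600 reads in NT (Hwayoung). Over the control, its log2 ratio was -0.02 ± 0.03 in RCc3::OsNAC6, a sign that turned with the scaling, 0.37 ± 0.03 in GOS2::OsNAC6 and 0.31 ± 0.03 in nac6. Neither overexpressor label came with a 2-fold gain of OsNAC6, and the library with the knockout label held more OsNAC6 reads than its control. The study reports high OsNAC6 RNA in roots of both overexpressors by gel blot of older plants, and describes nac6 as a null mutant. It also measured OsNAC6 by qRT-PCR in roots at 2 weeks, the age of these libraries. It ascribes the opposite root phenotypes of the overexpressors and nac6 to that OsNAC6 level. These and other assays of OsNAC6 in these plants were not analysed here. The value columns of the tables name no sample and were assigned by the order of sample numbers in each table's name. For both Nipponbare comparisons this order is borne out by the control reads that their tables share. The nac6 and NT (Hwayoung) columns have no library in common with another comparison, so they lack that check. Exchanging them would turn the sign of every nac6 ratio, that of OsNAC6 included. The study reports the nicotianamine synthase genes OsNAS1 and OsNAS2 as lower in nac6, a result drawn from these same libraries. The order used gives that direction, with log2 ratios of -2.71 and -3.06. This shows that the columns were read as the study read them, and cannot check the labels of the libraries. The study also states that target genes were verified by qRT-PCR on separately isolated RNA, which was not analysed here. Libraries are therefore named by their labels, and each direction given for the 9 genes is a direction between libraries so labelled.

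The libraries held between 22909804 and 26838682 reads, recovered from the deposited values, and the markers fitted root tissue. The root genes RCc3, OsLsi1 and OsLsi2 were read in all 5 libraries and differed between them. RCc3 had log2 ratios of 0.56 in RCc3::OsNAC6, 0.95 in GOS2::OsNAC6, above each of the 9 genes there, and -0.03 in nac6. OsLsi1 had 0.41 in RCc3::OsNAC6, -0.22 in GOS2::OsNAC6 and 0.02 in nac6, and OsLsi2 had -0.07 in RCc3::OsNAC6, 0.25 in GOS2::OsNAC6 and 0.24 in nac6. RCc3 was 3.09-fold higher in NT (Nipponbare) than in NT (Hwayoung), whereas OsLsi1 and OsLsi2 were lower there, at 0.62-fold and 0.68-fold. The 55 listed transcripts with a photosynthesis function text summed to only 37.3 RPM (reads scaled to a common library total) in the library labelled RCc3::OsNAC6, 53.9 RPM in GOS2::OsNAC6, 58.7 RPM in NT (Nipponbare), 59.4 RPM in nac6 and 57.0 RPM in NT (Hwayoung), with between 4 and 6 of them at 0. In the RCc3::OsNAC6 comparison, the median log2 ratio of the 17 photosynthesis transcripts that passed the filter was -0.79, with 7 of them at least 2-fold lower. It was -0.02 over 17 transcripts in GOS2::OsNAC6 and 0.31 over 20 transcripts in nac6. The part of the root and photosynthesis differences in the results for the 9 genes was not tested, and in bulk roots fewer cells of a type and less RNA per cell cannot be told apart.

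Most of the 9 genes had higher values in the library labelled RCc3::OsNAC6, smaller differences of the same sign in that labelled GOS2::OsNAC6, and lower values in that labelled nac6, each against its own control. In the library labelled RCc3::OsNAC6, 4 of the 9 genes exceeded NT (Nipponbare) by 2-fold or more, namely OsIRT1, OsIRT2, OsNRAMP1 and OsHRZ2, whereas 4.47% of all 32487 transcripts tested did. Of the 9, 0 were at least 2-fold lower there, against 6.03% of all transcripts. In the library labelled GOS2::OsNAC6, 0 of the 9 were 2-fold higher and 0 were 2-fold lower, against 1.83% and 2% of all 31987 transcripts. In the library labelled nac6, 3 of the 9 were at least 2-fold lower than in NT (Hwayoung), namely OsIRT2, OsNRAMP1 and OsIRO2, against 3.65% of all 30767 transcripts. Of the 9, 0 were 2-fold higher there, against 6.3% of all transcripts. Under scaling to library totals the balance of all transcripts in nac6 turned, with 1440 higher and 1699 lower in place of 1938 higher and 1123 lower. All 9 genes passed the filter of a mean of 10 normalized counts in each comparison, so no gene was left out. With 1 library per group no difference has a replicate check, and every ± on a ratio is a counting error of the reads.

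**Figure D1:**
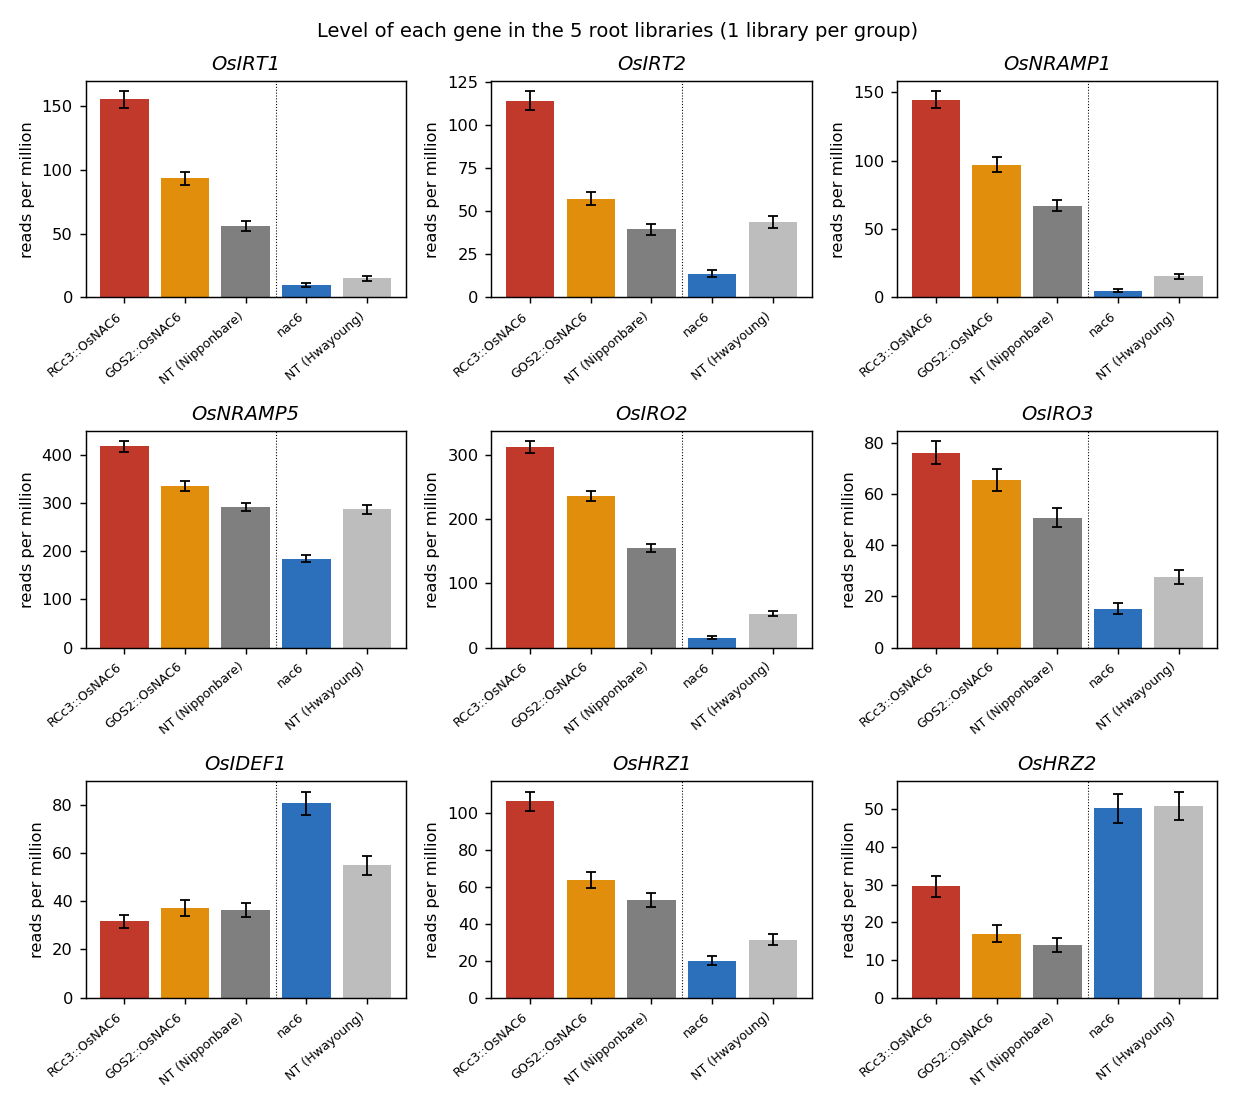
Level of each of the 9 genes in RPM (vertical axis, from 0) in the 5 libraries, with bars for the transcript with the most reads and lines for 95% counting intervals. The bar of RCc3::OsNAC6 was the tallest of the 3 Nipponbare libraries for 8 genes and the lowest for OsIDEF1, while the nac6 bar lay under the NT (Hwayoung) bar for 7 genes, about level with it for OsHRZ2 and above it for OsIDEF1.

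OsIRT1 imports ferrous iron at the root surface and was highest in the library labelled RCc3::OsNAC6 and lowest in that labelled nac6. OsIRT1 had 4032 reads in the library labelled RCc3::OsNAC6, 2241 reads in GOS2::OsNAC6 and 1502 reads in NT (Nipponbare), and 228 reads in nac6 against 353 reads in NT (Hwayoung). Scaled to the library total these were 155 RPM in RCc3::OsNAC6, 93.6 RPM in GOS2::OsNAC6 and 56.0 RPM in NT (Nipponbare), and 9.95 RPM in nac6 and 15.0 RPM in NT (Hwayoung). All neighbours in this order of 5 lay further apart than their 95% counting interval. Over its control, OsIRT1 had a log2 ratio of 1.44 ± 0.06 in RCc3::OsNAC6, a 2.72-fold difference, 0.84 ± 0.06 in GOS2::OsNAC6 and -0.43 ± 0.16 in nac6. A ratio at least as high was found in 1.68% of all transcripts tested for RCc3::OsNAC6 and in 3.12% for GOS2::OsNAC6, while for nac6 19.1% of all transcripts had a ratio at least as low.

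OsIRT2, a close relative of OsIRT1 with a neighbouring locus number, differed from it in the Hwayoung pair. OsIRT2 had 2954 reads in the library labelled RCc3::OsNAC6, 1371 reads in GOS2::OsNAC6 and 1058 reads in NT (Nipponbare), and 317 reads in nac6 against 1026 reads in NT (Hwayoung). In RPM the levels were 114 in RCc3::OsNAC6, 57.3 in GOS2::OsNAC6 and 39.4 in NT (Nipponbare), 13.8 in nac6 and 43.5 in NT (Hwayoung), so that both nontransgenic libraries lay within their counting interval and nac6 lay under all others. The ratios of OsIRT2 were 1.5 ± 0.07 for RCc3::OsNAC6, the highest of the 9 genes, 0.64 ± 0.08 for GOS2::OsNAC6 and -1.49 ± 0.12 for nac6. In nac6, 0.985% of all transcripts had a ratio at least as low. How reads that match both OsIRT1 and OsIRT2 were assigned is not given in the sources used here, so the split between them is uncertain.

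OsNRAMP1, a plasma membrane transporter of iron and cadmium, was also past 2-fold in the libraries labelled RCc3::OsNAC6 and nac6. Its transcript Os07t0258400-01 had 3751 reads in RCc3::OsNAC6, 2326 reads in GOS2::OsNAC6 and 1804 reads in NT (Nipponbare), and 116 reads in nac6 against 363 reads in NT (Hwayoung). The levels of OsNRAMP1 were 145 RPM in RCc3::OsNAC6, 97.2 RPM in GOS2::OsNAC6 and 67.2 RPM in NT (Nipponbare), 5.06 RPM in nac6 and 15.4 RPM in NT (Hwayoung), all neighbours in the order being apart beyond counting error. Its log2 ratio was 1.07 ± 0.05 in RCc3::OsNAC6, 0.63 ± 0.06 in GOS2::OsNAC6 and -1.43 ± 0.20 in nac6. Its second transcript, Os07t0258400-02, gave 1.14 ± 0.07 in RCc3::OsNAC6, 0.63 ± 0.08 in GOS2::OsNAC6 and -0.97 ± 0.24 in nac6, the last just short of 2-fold, and both transcripts of OsNRAMP1 summed gave -1.25 there.

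OsNRAMP5, the main manganese and cadmium uptake transporter of rice roots, differed the least of the 4 transporters in the Nipponbare comparisons. It had 10822 reads in the library labelled RCc3::OsNAC6, 8035 reads in GOS2::OsNAC6 and 7837 reads in NT (Nipponbare), and 4219 reads in nac6 against 6759 reads in NT (Hwayoung). In RPM, OsNRAMP5 stood at 417 in RCc3::OsNAC6, 336 in GOS2::OsNAC6 and 292 in NT (Nipponbare), at 184 in nac6 and at 287 in NT (Hwayoung). The levels of the nontransgenic libraries lay within their counting interval, with a difference of 5.28 ± 6.37 RPM. The ratio of OsNRAMP5 was 0.49 ± 0.03 in RCc3::OsNAC6, 0.30 ± 0.03 in GOS2::OsNAC6 and -0.48 ± 0.04 in nac6. They were beyond counting error and under 2-fold in all 3 comparisons, and 16.7% of all transcripts had a ratio at least as high in RCc3::OsNAC6. OsNRAMP1 and OsNRAMP5 are also close in identifier on chromosome 7, and the tables describe OsNRAMP5 as similar to OsNramp1, so reads shared between them are a second uncertain split.

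Among the regulators, OsIRO2, the activator of strategy II genes, had the lowest ratio of the 9 genes in the library labelled nac6. OsIRO2 (Os01t0952800-01) had 8098 reads in RCc3::OsNAC6, 5655 reads in GOS2::OsNAC6 and 4158 reads in NT (Nipponbare), and 351 reads in nac6 against 1245 reads in NT (Hwayoung). These corresponded to 312 RPM in RCc3::OsNAC6, 236 RPM in GOS2::OsNAC6 and 155 RPM in NT (Nipponbare) and to 15.3 RPM in nac6 and 52.8 RPM in NT (Hwayoung), all neighbours being apart beyond counting error. For RCc3::OsNAC6 the log2 ratio of OsIRO2 was 0.98 ± 0.04, a 1.97-fold difference just short of the 2-fold line, which it passed with 1.01 under scaling to library totals. It was 0.71 ± 0.04 for GOS2::OsNAC6 and -1.62 ± 0.12 for nac6, where 0.744% of all transcripts had a ratio at least as low. The other listed transcript of OsIRO2, Os01t0952800-02, is described as a conserved hypothetical protein and had far fewer reads, between 68 in nac6 and 436 in RCc3::OsNAC6. Its ratio was 0.48 ± 0.14 in RCc3::OsNAC6, 0.63 ± 0.14 in GOS2::OsNAC6 and -0.67 ± 0.29 in nac6, with the signs of the main transcript.

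OsIRO3, the bHLH repressor, had ratios of the same sign as OsIRO2 in each pair of libraries, and smaller ones. OsIRO3 (Os03t0379300-01) had 1975 reads in the library labelled RCc3::OsNAC6, 1568 reads in GOS2::OsNAC6 and 1365 reads in NT (Nipponbare), and 347 reads in nac6 against 652 reads in NT (Hwayoung). The levels were 76.2 RPM in RCc3::OsNAC6, 65.5 RPM in GOS2::OsNAC6 and 50.9 RPM in NT (Nipponbare), 15.1 RPM in nac6 and 27.7 RPM in NT (Hwayoung). The ratio of OsIRO3 was 0.55 ± 0.07 in RCc3::OsNAC6, 0.47 ± 0.07 in GOS2::OsNAC6 and -0.71 ± 0.13 in nac6, none of them 2-fold. Its transcript Os03t0379300-02 held nearly the same number of reads in every library, and also 1568 in GOS2::OsNAC6. It gave 0.62 in RCc3::OsNAC6, 0.57 in GOS2::OsNAC6 and -0.67 in nac6. Whether a read could count for more than 1 transcript of a gene is not given in the sources used here. Second transcripts may therefore not be independent values, and sums over transcripts, library totals included, may hold some reads more than 1 time.

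OsIDEF1, which acts upstream of OsIRO2, was the one gene of the 9 with a ratio below 0 in the library labelled RCc3::OsNAC6, and had the highest ratio of the 9 in nac6. OsIDEF1 had 820 reads in RCc3::OsNAC6, 889 reads in GOS2::OsNAC6 and 975 reads in NT (Nipponbare), and 1847 reads in nac6 against 1295 reads in NT (Hwayoung). The levels of OsIDEF1 were 31.6 RPM in RCc3::OsNAC6, 37.1 RPM in GOS2::OsNAC6 and 36.3 RPM in NT (Nipponbare), 80.6 RPM in nac6 and 54.9 RPM in NT (Hwayoung), with GOS2::OsNAC6 and NT (Nipponbare) within their counting interval. As a log2 ratio, OsIDEF1 had -0.23 ± 0.09 in RCc3::OsNAC6, 0.13 ± 0.09 in GOS2::OsNAC6 and 0.71 ± 0.07 in nac6. All 3 were under 2-fold, and 31.7% of all transcripts had a ratio at least as low in RCc3::OsNAC6, whereas 11.1% had one at least as high in nac6.

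OsHRZ1 and OsHRZ2, the ubiquitin ligases that restrain iron deficiency responses, had alike ratios in the Nipponbare libraries and unlike ratios in the Hwayoung pair. OsHRZ1 (Os01t0689451-02) had 2755 reads in the library labelled RCc3::OsNAC6, 1525 reads in GOS2::OsNAC6 and 1421 reads in NT (Nipponbare), and 456 reads in nac6 against 739 reads in NT (Hwayoung). OsHRZ2 had 765 reads in RCc3::OsNAC6, 407 reads in GOS2::OsNAC6 and 374 reads in NT (Nipponbare), and 1150 reads in nac6 against 1198 reads in NT (Hwayoung). The Hwayoung libraries thus held fewer OsHRZ1 reads and more OsHRZ2 reads than the Nipponbare libraries. In RPM, OsHRZ1 was at 106 in RCc3::OsNAC6, 63.7 in GOS2::OsNAC6 and 52.9 in NT (Nipponbare), 19.9 in nac6 and 31.3 in NT (Hwayoung). OsHRZ2 was at 29.5 RPM in RCc3::OsNAC6, 17.0 RPM in GOS2::OsNAC6 and 13.9 RPM in NT (Nipponbare), at 50.2 RPM in nac6 and at 50.8 RPM in NT (Hwayoung), the last a difference within counting error.

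For RCc3::OsNAC6 the log2 ratio was 0.97 ± 0.06 for OsHRZ1 and 1.05 ± 0.12 for OsHRZ2, with the 2-fold line inside the counting interval of both. The other transcript of OsHRZ1, Os01t0689451-01, gave 0.93 in RCc3::OsNAC6, 0.30 in GOS2::OsNAC6 and -0.57 in nac6. For GOS2::OsNAC6 the ratios were 0.36 ± 0.07 for OsHRZ1 and 0.40 ± 0.14 for OsHRZ2. For nac6 they were -0.50 ± 0.11 for OsHRZ1 and 0.13 ± 0.08 for OsHRZ2, and under scaling to library totals the OsHRZ2 ratio changed sign, at -0.02. The deposited value of a library is a mean of 2 count columns, and both HRZ genes differed between these columns. In GOS2::OsNAC6, OsHRZ1 gave 0.60 from column 1 and 0.12 from column 2, while OsHRZ2 gave 0.03 and 0.73. In RCc3::OsNAC6, OsHRZ1 gave 1.09 from column 1 and 0.86 from column 2, while OsHRZ2 gave 0.88 and 1.23, so which of them passed 2-fold there depended on the column.

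**Figure D2:**
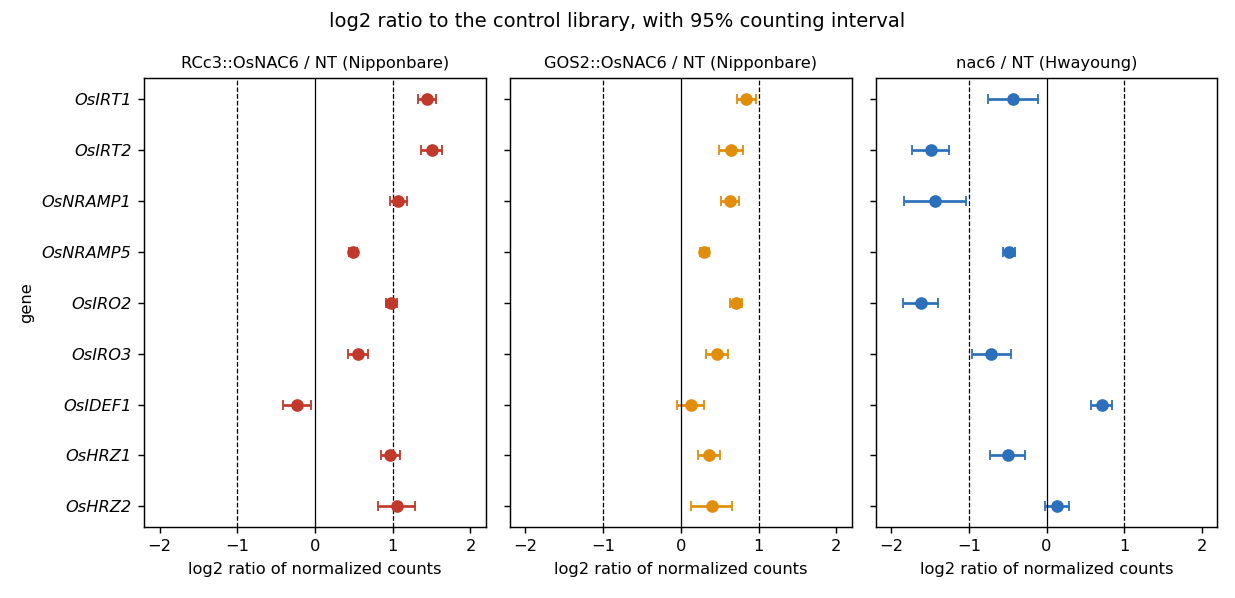
log2 ratio of each gene to its control library (horizontal axis) with 95% counting intervals, in the comparisons of RCc3::OsNAC6, GOS2::OsNAC6 and nac6, with dashed lines at 2-fold. In RCc3::OsNAC6 the ratios ran between -0.23 and 1.5, in GOS2::OsNAC6 between 0.13 and 0.84, and in nac6 between -1.62 and 0.71.

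Beside all transcripts, the median of the 9 genes lay higher for both libraries with overexpressor labels and lower for nac6. Their median log2 ratio was 0.98 in the library labelled RCc3::OsNAC6, where the median of all transcripts tested was 0.01, and 8 of the 9 were above 0. In GOS2::OsNAC6 the median of the 9 was 0.47, against -0.01 for all transcripts, and 9 of the 9 were above 0. In nac6 the median of the 9 was -0.50, against -0.01 for all transcripts, and 2 of the 9, OsIDEF1 and OsHRZ2, were above 0. The comparisons of RCc3::OsNAC6 and GOS2::OsNAC6 share the NT (Nipponbare) library, so a value of that library that was off would shift both. The reference gene UBIQUITIN 1 had a ratio of 0.48 in RCc3::OsNAC6, 0.24 in GOS2::OsNAC6 and 0.03 in nac6. Its values for RCc3::OsNAC6 and GOS2::OsNAC6 were close to those of OsNRAMP5.

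**Figure D3:**
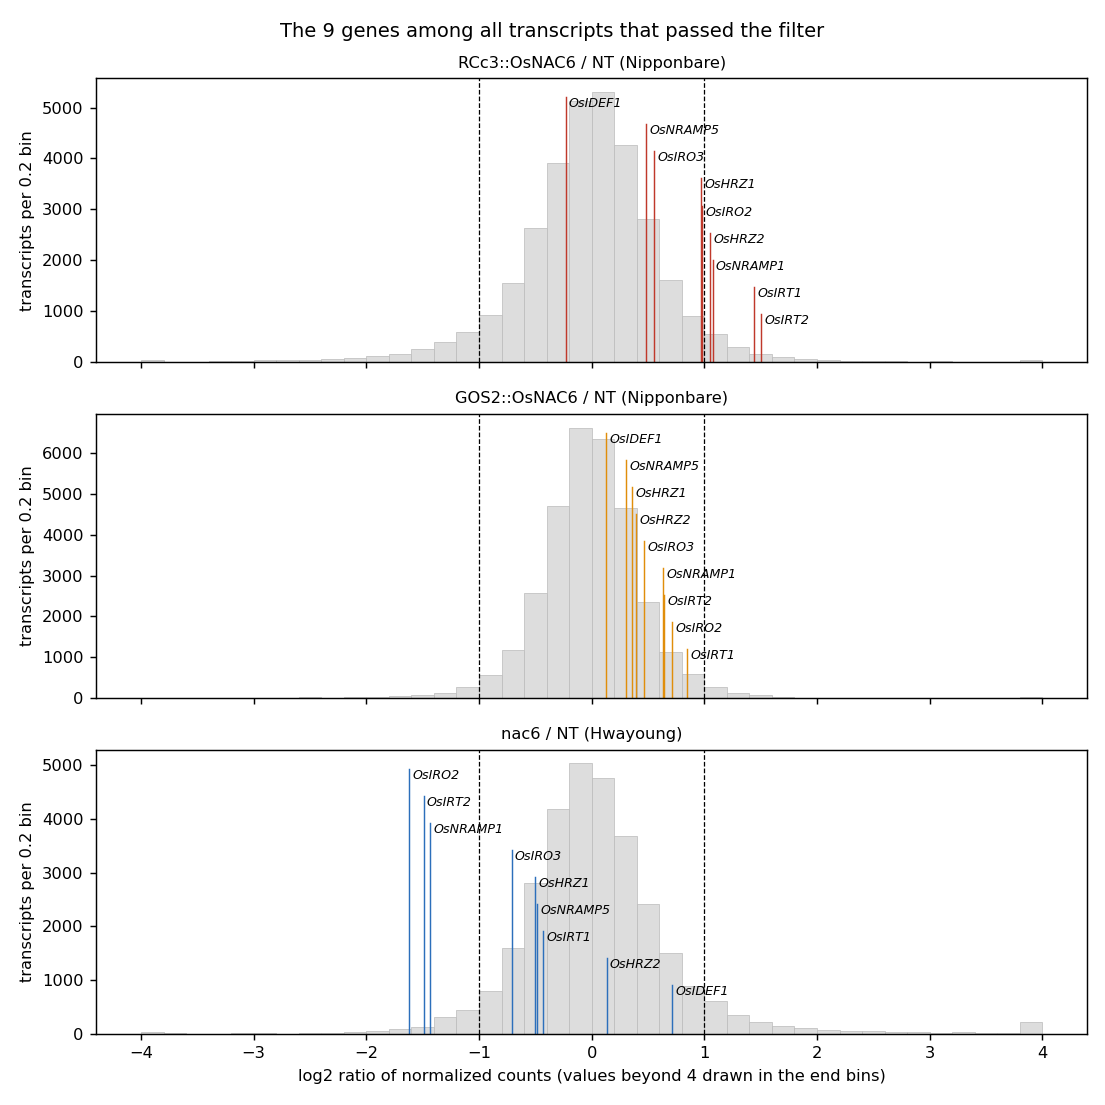
Distribution of log2 ratios over all transcripts that passed the filter (grey bars, transcripts per bin) with the 9 genes as coloured lines of arbitrary height, in each of the 3 comparisons, and dashed lines at 2-fold. The 9 genes lay right of the centre in GOS2::OsNAC6 and, but for OsIDEF1, in RCc3::OsNAC6, and 7 of them lay left of it in nac6.

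The libraries with overexpressor labels were also set side by side in RPM, as they come from tables that were normalized separately. Of the 9 genes, 8 stood higher in RCc3::OsNAC6 than in GOS2::OsNAC6, with a median log2 ratio of 0.57, whereas the median of all 32208 transcripts with a mean of at least 20 reads was 0.13. No gene was 2-fold higher or lower, against 7.43% and 4.83% of all transcripts. OsIRT2 came closest with 0.99 ± 0.06, followed by OsHRZ2 with 0.79 ± 0.12, OsHRZ1 with 0.74 ± 0.06 and OsIRT1 with 0.73 ± 0.05. OsIRO3 had 0.22 ± 0.06 and OsIDEF1 had -0.23 ± 0.09. OsNRAMP1, OsIRO2 and OsNRAMP5 lay between them, with 0.57 ± 0.05, 0.40 ± 0.03 and 0.31 ± 0.03.

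The nontransgenic libraries of the cultivars also differed beyond counting error for most of these genes, and by 2-fold for fewer of them. In NT (Nipponbare) over NT (Hwayoung), again in RPM across tables normalized separately, 3 of the 9 genes were at least 2-fold higher and 1 was at least 2-fold lower, against 16.7% and 8.32% of all 32205 transcripts, whose median log2 ratio was 0.22. OsNRAMP1 was 4.37-fold higher in NT (Nipponbare), with 67.2 RPM against 15.4 RPM in NT (Hwayoung), OsIRT1 was 3.74-fold higher and OsIRO2 was 2.93-fold higher. OsHRZ2 went the other way, with 13.9 RPM in NT (Nipponbare) against 50.8 RPM in NT (Hwayoung), a log2 ratio of -1.87 ± 0.11. OsIRO3, with 0.88 ± 0.09, and OsHRZ1, with 0.76 ± 0.09, were higher in NT (Nipponbare), and OsIDEF1, with -0.60 ± 0.08, was lower. OsIRT2 and OsNRAMP5, with -0.14 ± 0.08 and 0.03 ± 0.03, had 95% counting intervals that included 0. Both intervals lay under the median of 0.22 of all transcripts. The reference gene UBIQUITIN 1 was lower in NT (Nipponbare), with -0.80 ± 0.01. Each cultivar is 1 nontransgenic library here, so cultivar and library cannot be told apart, and the nac6 library was compared only with its own cultivar.

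Other genes of iron and metal handling were given as lists around the 9 genes. The phytosiderophore list holds genes that make, secrete or take up the strategy II chelators, together with OsYSL2. Its medians had the same sign as those of the 9 genes and larger size. Of its genes, 8 of 8 passed 2-fold upward in the library labelled RCc3::OsNAC6, against 4.47% of all transcripts, with a median log2 ratio of 1.94. In GOS2::OsNAC6, 7 of 8 did, against 1.83% of all transcripts, with a median of 1.70. In nac6, 5 of 8 were at least 2-fold lower and 1 was higher, against 3.65% and 6.3% of all transcripts. The median there was -1.81. The whole list was chosen with earlier results of these data known, and the study itself named nicotianamine synthase genes from these libraries. The list is therefore not independent evidence of its direction. The lowest of the list in RCc3::OsNAC6 was OsDMAS1 (deoxymugineic acid synthase) with 1.14 ± 0.05. The highest there was OsYSL2 (an iron-nicotianamine transporter) with 6.74 ± 0.51, on 1667 reads against only 14 reads in NT (Nipponbare). The lowest and highest in GOS2::OsNAC6 were OsNAAT1 (nicotianamine aminotransferase) with 0.84 ± 0.04 and OsNAS3 (a nicotianamine synthase) with 3.25 ± 0.09. In nac6 they were TOM1 (the mugineic acid exporter) with -3.58 ± 0.80, on 6 reads in nac6 against 105 reads in NT (Hwayoung), and OsYSL2 with 2.17 ± 0.49, on 81 reads in nac6 against 19 reads in NT (Hwayoung).

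The other regulators of iron deficiency responses had ratios of both signs. Of the 6 listed, OsbHLH133 was not analysed here, and the other 5 passed the filter. In the library labelled RCc3::OsNAC6, OsbHLH156, a bHLH partner of OsIRO2, was at 1.27 ± 0.08 and OsPRI2, a bHLH factor upstream of OsIRO2, was at -1.05 ± 0.08, the only ones past 2-fold, and the list had a median of -0.55. In GOS2::OsNAC6, OsbHLH156 was the highest with 1.05 ± 0.09, or 0.95 under scaling to library totals, the lowest was the NAC factor OsIDEF2 with -0.36 ± 0.02, and the median was 0.08. In nac6 none passed 2-fold, and the values ran between -0.41 for OsPRI1 and 0.35 for OsPRI2. OsbHLH156 had the sign of OsIRO2 in each comparison, with -0.32 ± 0.16 in nac6. Over all transcripts, 4.47% were at least 2-fold higher and 6.03% lower in RCc3::OsNAC6, 1.83% and 2% in GOS2::OsNAC6, and 6.3% and 3.65% in nac6.

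Among the other NRAMP and ZIP transporters, 9 of the 10 listed passed the filter, OsZIP3 being too low. In the library labelled RCc3::OsNAC6, 2 passed 2-fold upward, OsZIP9 with 1.59 ± 0.09 and OsZIP4 with 1.05 ± 0.08, both zinc transporters of the ZIP family, and OsZIP8 was lower with -2.26 ± 0.11. The median was 0.20. In GOS2::OsNAC6 only OsZIP8 passed 2-fold, with -1.86 ± 0.10, the highest was OsZIP9 with 0.82 ± 0.10, and the median was 0.25. In nac6 the only one past 2-fold was OsNRAT1, an aluminium transporter of the NRAMP family, with -1.26 ± 0.17, the highest was OsZIP4 with 0.84 ± 0.11, and the median was -0.19. Of the 9, 4 were above 0 in the library labelled nac6, and the OsZIP4 call in RCc3::OsNAC6 and the OsNRAT1 call were each lost from a single count column. The shares of all transcripts at least 2-fold higher and lower were 4.47% and 6.03% in RCc3::OsNAC6. They were 1.83% and 2% in GOS2::OsNAC6, and 6.3% and 3.65% in nac6.

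Of the 9 storage and translocation genes, 3 were 2-fold lower in the library labelled RCc3::OsNAC6 and 1 was higher, where 6.03% of all transcripts were lower and 4.47% were higher. The lower ones were OsVIT2 (a vacuolar iron transporter) with -1.48 ± 0.15, OsFRDL1 (a citrate transporter for iron translocation) with -1.21 ± 0.08 and OsFER2 (a ferritin, which stores iron) with -1.13 ± 0.11, or -0.85 from count column 2 alone. The higher one was OsMTP8.1, a manganese transporter of the tonoplast, with 1.09 ± 0.16, and the median was -0.27. In GOS2::OsNAC6 none passed 2-fold, the values ran between -0.28 for OsFER1 and 0.43 for OsHMA2, and the median was 0.05. In nac6 none passed 2-fold either, the values ran between -0.46 for OsMTP9 and 0.45 for OsHMA3, and the median was -0.15.

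**Figure D4:**
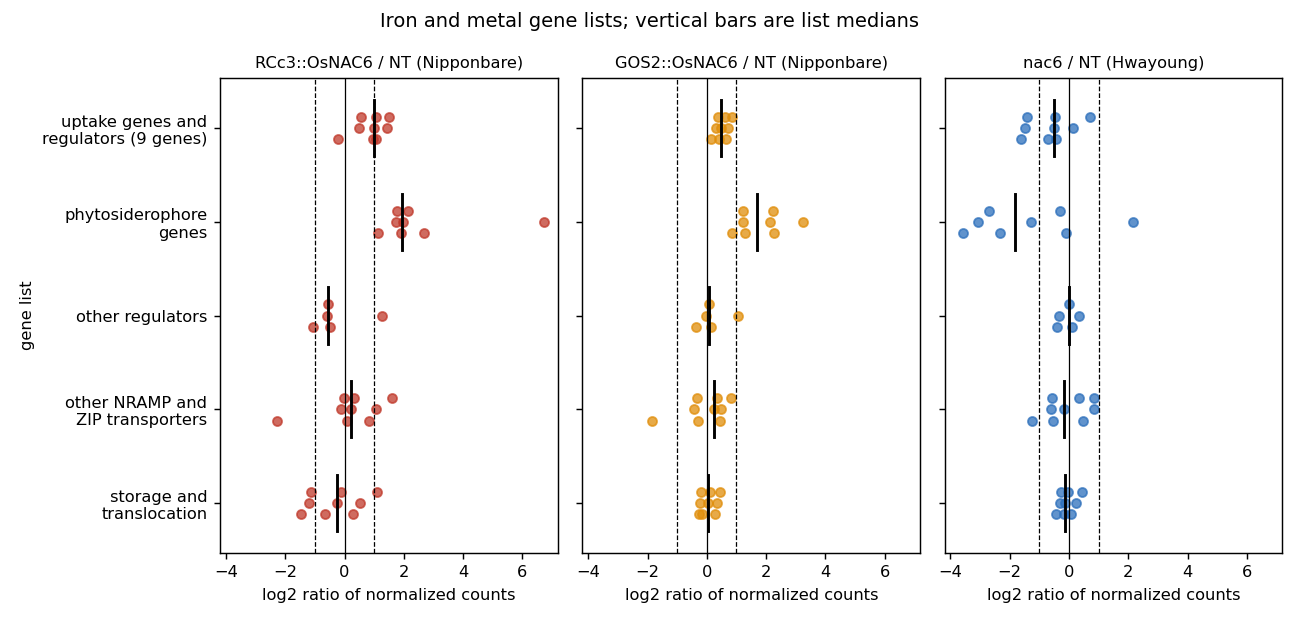
log2 ratio to the control library (horizontal axis) of every gene that passed the filter in the 9-gene set and in 4 lists of related genes, with vertical bars at list medians and dashed lines at 2-fold. The phytosiderophore genes had the largest medians, 1.94 in RCc3::OsNAC6, 1.70 in GOS2::OsNAC6 and -1.81 in nac6. The 9 genes followed in each comparison, with 0.98, 0.47 and -0.50 in the same order.

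For OsIRT1, OsNRAMP5 and OsIRO2, the transcripts with the most similar set of 3 log2 ratios were sought among 20779 transcripts, by Euclidean distance. The nearest to OsIRO2 was OsNRAMP1 (Os07t0258400-01), another of the 9 genes, at a distance of 0.22, followed by Os10t0118000-01, similar to a pentadecatrienyl resorcinol methyltransferase, at 0.25 and Os07t0412100-01, similar to a granule-bound starch synthase, at 0.32. Nearest to OsIRT1 were Os06t0651100-01, similar to an HC toxin reductase, at 0.18, Os03t0234900-01, similar to a peroxidase, at 0.26 and Os06t0543400-01, similar to a CBL-interacting protein kinase, at 0.27. The pattern of OsNRAMP5, close to the bulk of transcripts, had nearer neighbours, the first being Os09t0394300-01, a glycoside hydrolase of family 9, at 0.026, then Os01t0591000-01 at 0.046 and Os01t0750300-03 at 0.061. These are likenesses over 3 ratios, of which 2 share a control library.

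The reads of the 9 genes were compared between both count columns of each library, with a median chi-square of 1.08 over 45 pairs of columns. In 4 pairs it was over 8, the largest being 12.6 for OsHRZ1 in GOS2::OsNAC6. For transcripts with at least 20 reads the mean chi-square, averaged over libraries, was 1.76. Counting error alone gives a mean of 1, so the columns differed by more than counting error. OsIDEF1 in nac6 was at 74.7 RPM in column 1 and 86.9 RPM in column 2, and OsNRAMP5 in NT (Nipponbare) was at 301 RPM in column 1 and 282 RPM in column 2. The count columns were treated as repeat counts of 1 library, although the sources used here do not say what they are.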

How the data were processed

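Strand-specific libraries were sequenced on an Illumina HiSeq instrument. The genome build IRGSP-1.0 is named in the submitters' processing notes, and the aligner, annotation release and counting rule are not given in the sources used here. The authors deposited 3 tables, 1 per comparison, whose values are a signal per transcript, namely mean counts normalized by the authors with DESeq size factors within each table. The tables also hold fold changes, p-values and adjusted p-values of the authors' comparisons, which were not used. The tables are named for pairs of the sample numbers 1 to 5 that the labels give. Their value columns, A and B, name no sample and were assigned in that order, and 0 columns of sample values were left unused.

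Each deposited value was split into whole reads of 2 count columns. This was possible for 100% of values, and for between 99.4% and 99.99% in a single way. Among transcripts with a single split in both tables, the reads of NT (Nipponbare) were identical for 39363 of 39363, and its totals were 26838682 and 26838552. What the 2 columns are is not given in the sources used here. They were treated as repeat counts of 1 library, and their mean chi-square of 1.76 multiplied the counting variance.

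Ratios were taken as log2((case + 1)/(control + 1)) within a table, after a filter that kept transcripts averaging 10 or more normalized counts over both libraries. The added 1 understates the change of low transcripts. The 2-fold criterion is that of the study. No p-value was computed, since each group has 1 library. Intervals are at the 95% level and cover counting error only, while each ± is 1 standard error of that counting. Values set across tables are reads per recovered total in RPM. No level was compared between genes, since no transcript lengths were used.

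Named were all 9 genes, each by its transcript with the most reads, the largest and smallest of each list, and the 3 loci nearest in pattern to OsIRT1, OsNRAMP5 and OsIRO2 among transcripts with at least 50 normalized counts in every pair. Further genes of the lists past 2-fold, and the comparisons in RPM, were chosen after their values were seen. The members and lists were chosen with earlier results of these data known. OsbHLH133 was not analysed here, and no promoter sequence was used. Alternatives were the count column, filter, fold threshold, pseudocount, scaling and summed isoforms. Of the 9 locus identifiers, 0 were found in the RefSeq gene table provided, so no coordinates are given. Python 3.11.15, numpy 2.4.6, pandas 2.3.3 and matplotlib 3.10.9 were used.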

Additional observations from a re-analysis of the deposited data

Results flagged for a closer look

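OsIDEF1 had log2 ratios of opposite sign in the libraries that share the NT (Nipponbare) control, -0.23 in the one labelled RCc3::OsNAC6 and 0.13 in the one labelled GOS2::OsNAC6. The 95% counting interval of the GOS2::OsNAC6 ratio ran between -0.04 and 0.30, so it included 0. Each group is 1 library, so the difference was not tested against replicates. OsIDEF1 stood at 31.6 RPM under the label RCc3::OsNAC6 and at 37.1 RPM under the label GOS2::OsNAC6, a log2 ratio of -0.23 ± 0.09 by counting error alone.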

How the results depend on the processing

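Of 66 counts of the 9 genes past the threshold, 62 stayed within 1.5 times the reported count under the alternatives. The other 4 came with the fold threshold. At 1.5-fold, 4 genes were higher in GOS2::OsNAC6 and 1 in nac6, against 0 and 0 at 2-fold. At 4-fold, 0 genes were higher in RCc3::OsNAC6 and 0 lower in nac6, against 4 and 3. Scaling to library totals raised the RCc3::OsNAC6 count to 6, by OsIRO2 and OsHRZ1. It also moved the median of all transcripts to -0.11 in GOS2::OsNAC6 and -0.16 in nac6. Of 330 log2 ratios, 316 stayed within their counting interval, and the signs of OsHRZ2 in nac6 and OsNAC6 in RCc3::OsNAC6 turned under some alternatives. The fold thresholds and filters cannot move a ratio, nor can summed isoforms for a gene with 1 transcript. Those cases are among the 316. Of 264 counts of the 4 other gene lists, 243 stayed within 1.5 times. From a single count column, 2-fold calls were lost for OsPRI2, OsZIP4, OsFER2 and OsHRZ2 in RCc3::OsNAC6, OsbHLH156 in GOS2::OsNAC6 and OsNRAT1 in nac6, with ratios of -0.98, 0.98, -0.85, 0.88, 0.92 and -0.97 in that order. Scaling to library totals also ended the OsbHLH156 call in GOS2::OsNAC6, at 0.95. A filter of 50 normalized counts removed OsYSL2 from the GOS2::OsNAC6 calls and OsYSL2, TOM1 and OsYSL15 from the nac6 calls. Without a filter, 2823 transcripts were higher and 3086 lower for RCc3::OsNAC6, 1780 and 1654 for GOS2::OsNAC6, and 3640 and 2262 for nac6. At 4-fold these were 249 and 421, 61 and 71, and 505 and 111. No paired analysis was possible because each group has 1 library, and for the same reason no replicate could be left out.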
